A study of Homo sapiens with 18 samples.

Results

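The 5 transcripts examined here are ones that pluripotent human cells make in connection with the endogenous retrovirus family HERV-H: HHLA1, ESRG, ABHD12B, LINC00458 and LINC00678. They are 5 of the 27130 gene symbols in the count tables, and all 5 were present in every table. They were chosen by name, with the roughly 4-fold higher level of HHLA1 in edited H9 cells in view, so the difference between edited and wild-type H9 cells is described for them here and not tested. The 5 transcripts were tested together with all other genes in replicated H1 cells, edited against wild type, and between the edited H9 clones. Other comparisons of them were described without a test.

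Polyadenylated RNA was sequenced from H1 (WA01) and H9 (WA09), both established lines of human embryonic stem cells, in wild-type form and after Cas9 deletion of ZNF263, which encodes a zinc finger transcription factor. The replicated groups were H1 wild type, H1 clone 1-10 (homozygous ZNF263 knockout), H9 wild type, H9 clone 9-1 and H9 clone 9-D (both homozygous knockouts), with 3 libraries each. A further 3 H1 libraries were unreplicated, 1 each of wild type, of clone 1-5 (heterozygous knockout) and of clone 1-10 (homozygous knockout). The question, as the submitters state it, was what ZNF263 does in the regulation of pluripotency. Each edited group is 1 clone, no other allele or agent is named for any group, and the labels give neither the edited part of the gene nor whether replicates were separate cultures, so p-values measure the spread between libraries, which may be technical.

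HERV-H entered the primate lineage as a retrovirus, and many copies remain in the human genome. Its long terminal repeat, LTR7, can act as a promoter in pluripotent cells, where factors such as POU5F1, NANOG and KLF4 are known to bind it, and it then drives long noncoding RNAs or chimeric transcripts that run into neighbouring genes. In most other cells the repeats are held silent by zinc finger proteins, the corepressor TRIM28, histone methylation and DNA methylation.

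Library totals ran from 9.66 to 21 M counts over the 18 libraries, and all of them held the defining genes of pluripotent cells. POU5F1 lay between 1369 and 2064 TMM-scaled CPM (read counts relative to the library total, the unit of all levels below, scaled within each count table) and SOX2 between 384 and 469 CPM. ZNF263 itself was still counted in edited cells, at 33.9 ± 1.98 CPM (SD, n = 3) in H1 clone 1-10 against 40.6 ± 1.22 CPM (n = 3) in wild type and at 36.0 ± 1.30 CPM (n = 6) in the H9 clones against 42.3 ± 2.27 CPM (n = 3). Both falls passed the quasi-likelihood F test of edgeR, Benjamini-Hochberg adjusted over all genes (adjusted p = 0.0156 and 0.0046), and reads outside the edited part do not check a knockout. Among all genes tested, 12.3% were called in H1 (7.25% lower, 5.01% higher), 29.7% in H9 (14.4% higher, 15.3% lower) and 0.305% between the H9 clones, at an adjusted p of 0.05.

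Per length the 5 transcripts spanned a wide range in unedited cells. Divided by the length of all GENCODE version 29 exons of the gene together, wild-type H1 held ESRG at 317 CPM per kilobase and LINC00678 at 109, LINC00458 at 4.53, HHLA1 at 0.72 and ABHD12B at 0.582. In wild-type H9 the corresponding levels were 325, 113, 4.39, 3.36 and 3.0 CPM per kilobase. These are levels of the replicated wild types. In them the 3 noncoding RNAs were near the same level in both lines. The 2 genes with protein-coding transcripts were 4.68-fold (HHLA1) and 5.15-fold (ABHD12B) higher in wild-type H9. That comparison was not tested, since levels were scaled separately in the tables of the 2 lines, and cell line and preparation cannot be told apart.

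HHLA1, whose name stands for a gene associated with a HERV-H repeat, was low in H1 cells, higher in wild-type H9 cells and highest in the edited H9 clones. In H9 wild type the 3 libraries held 19.2, 21.5 and 21.3 CPM. Clone 9-1 held 82.2, 92.1 and 105.6 CPM and clone 9-D 86.5, 77 and 79.9 CPM. All 6 edited libraries were thus far above all 3 wild-type ones, by 4.52-fold in the mean of 9-1 and 3.93-fold in that of 9-D (4.22-fold for both, log2 2.08). As this is the difference that led to the choice of the gene, it is a description. In H1 the picture was another: wild type held 3.99, 4.52 and 4.75 CPM and clone 1-10 held 2.79, 4.90 and 3.57 CPM. These groups overlapped, and the log2 fold change of -0.22 (SE 0.202, interval -0.62 to 0.17) did not pass the test (edgeR adjusted p = 0.526). That interval excludes a rise of the size described for H9, although the difference between the lines was itself not tested.

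ESRG, a long noncoding RNA known for its abundance in human embryonic stem cells, was the most abundant of the 5 in every library and differed between groups by modest ratios. Wild-type H9 held 1050, 893 and 1114 CPM, clone 9-1 held 1144, 1243 and 1248 CPM, and clone 9-D held 1198, 1210 and 1301 CPM. Every edited H9 library lay above every wild-type one, and the ratio of means was 1.2 (log2 0.26). In H1, wild type held 991, 888.9 and 1104 CPM and clone 1-10 held 846, 887.7 and 867 CPM. The edited libraries were all below the wild-type ones, but the nearest pair was separated by hardly more than 1 CPM. The fall of 0.20 on the log2 scale (log2 fold change -0.20, SE 0.052) passed edgeR's test (adjusted p = 0.0105). It was lost when wild-type replicate 3 (adjusted p = 0.198) or clone 1-10 replicate 1 (adjusted p = 0.0607) was left out of the edgeR fit. DESeq2 run on the deposited counts kept the call (adjusted p = 0.0219). In the authors' deposited table the same difference has a log2 fold change of -0.19 and a DESeq2 adjusted p of 0.143, and the reason for this gap was not found.

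ABHD12B, a member of the alpha/beta hydrolase domain family, was like HHLA1 low in H1, higher in wild-type H9 and highest in the edited H9 clones. It stood at 12.7, 13.5 and 13.8 CPM in wild-type H9, at 24.3, 34.0 and 28.6 CPM in clone 9-1 and at 31.1, 29.4 and 33.1 CPM in clone 9-D. No edited library overlapped the wild type, and the ratio of means was 2.26 (log2 1.18). In H1 it was rarely counted, at 3.75, 1.48 and 2.52 CPM in unedited cells (23 to 47 counts) and 2.28, 2.14 and 1.47 CPM in clone 1-10 (14 to 37 counts). The H1 groups overlapped, and the log2 fold change of -0.32 (SE 0.285, interval -0.88 to 0.24) did not pass (edgeR adjusted p = 0.509). Without wild-type replicate 1, the highest H1 library, that log2 value was 0.03.

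LINC00458, a long intergenic noncoding RNA of pluripotent cells, lay lower in the edited H1 clone and higher in the edited H9 clones than in wild type. In H1 the wild-type libraries held 12.3, 9.23 and 11.7 CPM (143 to 162 counts) and the clone 1-10 libraries 3.55, 4.62 and 3.67 CPM (35 to 80 counts). The groups were well apart, with the edited mean at 0.357 of the wild-type mean (3.95 ± 0.583 against 11.1 ± 1.62 CPM, SD, n = 3 each). The log2 fold change of -1.46 (SE 0.158) passed edgeR's test (adjusted p = 4.21e-08), with a range of 1.45e-18 to 1.42e-06 over the alternatives. The authors' deposited table gives a log2 fold change of -1.45 for it. In H9 the wild type held 10.2, 12.4 and 9.56 CPM, clone 9-1 held 15.2, 21.6 and 22.8 CPM, and clone 9-D held 23.0, 22.5 and 21.2 CPM. Here each edited library was above each wild-type one, and the log2 ratio of means was 0.97. Replicated wild-type levels in the 2 lines, scaled separately, were alike (11.1 CPM in H1 and 10.7 CPM in H9), with the edited lines on either side of them. The unreplicated H1 wild-type library, described below, was lower, at 4.0 CPM.

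LINC00678, another long intergenic noncoding RNA, was the steady one of the group. Its levels were 125, 125 and 130 CPM in wild-type H1 and 121, 125 and 134 CPM in clone 1-10. In H9 the wild-type libraries held 130, 130 and 136 CPM, with 131, 128 and 127 CPM in clone 9-1, and 122, 132 and 132 CPM in clone 9-D. All groups overlapped. The H1 log2 fold change had an interval of -0.12 to 0.11 (edgeR adjusted p = 0.973), and the ratio of H9 means was 0.975. At 1275 counts or more in every replicated library, depth was ample, and a change as large as that of LINC00458 in H1 lies outside this interval.

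**Figure D1:**
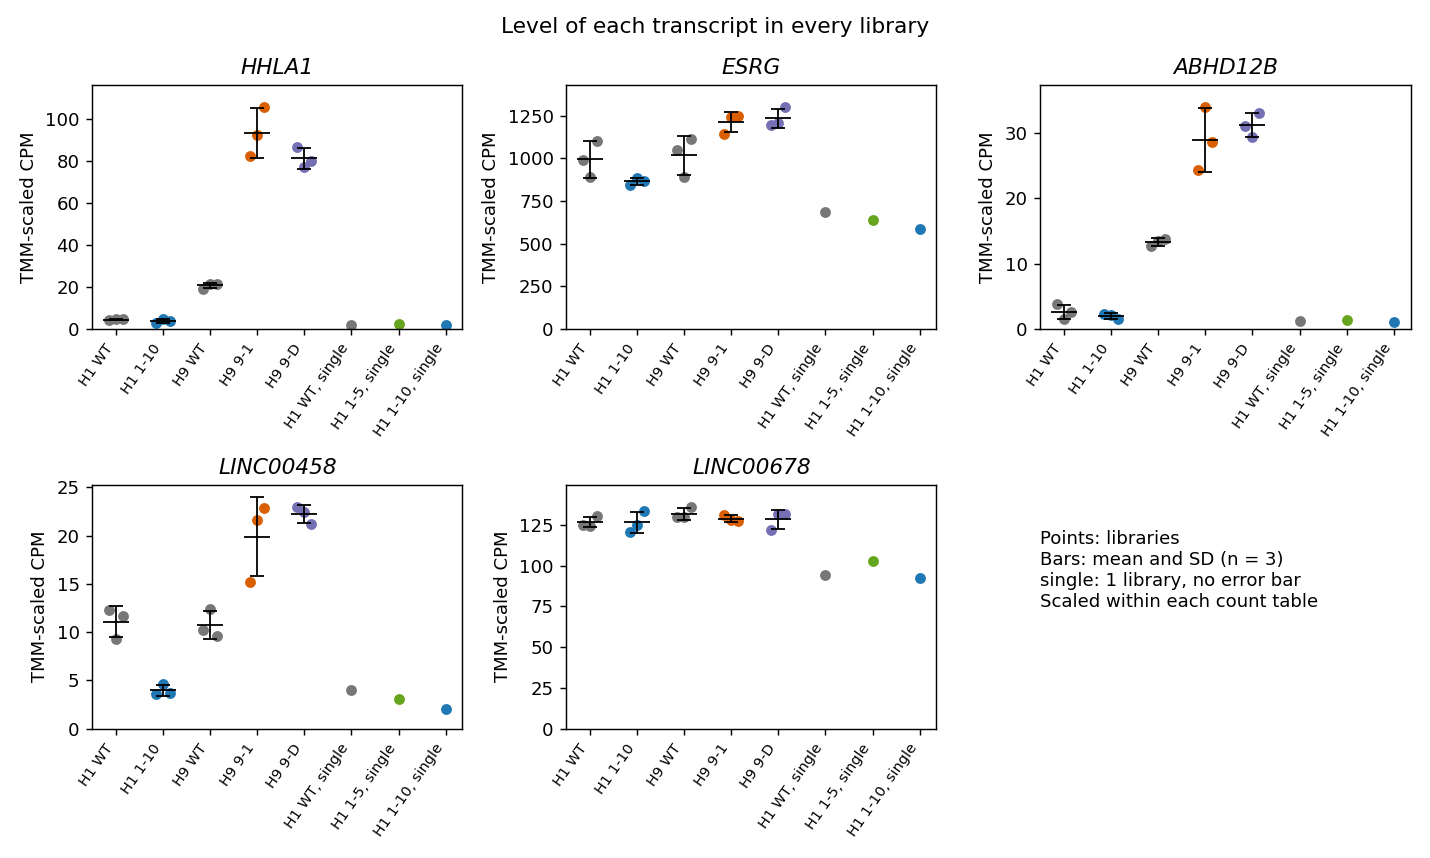
Each point is the TMM-scaled CPM (y axis, linear and starting at 0) of 1 library, grouped on the x axis by line and genotype, with bars for the mean and SD where n = 3. HHLA1, ABHD12B and LINC00458 are high in both edited H9 clones, LINC00458 is low in H1 clone 1-10 (3.55 to 4.62 CPM), and LINC00678 is level over the 15 replicated libraries.

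Of the 5 transcripts, 2 were called in H1, both lower (ESRG and LINC00458), where 7.25% of all tested genes were called lower. In H9, 4 of the 5 had every edited library above every wild-type library, as had 12.8% of all tested genes, but that contrast served to choose them. The replicated groups were ranked by mean level, with each line scaled separately. HHLA1 ran from clone 9-1 and clone 9-D, which overlapped, through H9 wild type to the overlapping H1 groups. ABHD12B had the same order of lines with 9-D ahead of 9-1. For LINC00458 the order was both H9 clones, then H1 and H9 wild type with overlapping values, then H1 clone 1-10. ESRG had both H9 clones first, overlapping H9 and H1 wild types next and H1 clone 1-10 last.

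For each of the 5, the means of the 2 H9 clones differed from each other less than either did from wild type. For LINC00678 all 3 means were close, at 128.7 CPM in 9-1, 128.5 CPM in 9-D and 131.8 CPM in wild type. For HHLA1 clone 9-D was lower than 9-1 by a log2 fold change of -0.20 (SE 0.072), with overlapping libraries, which did not pass over all 15411 genes (edgeR adjusted p = 0.542). For the other 4 the log2 differences lay between -0.0029 (LINC00678, interval -0.12 to 0.11) and 0.15 (LINC00458, interval -0.06 to 0.36), and none passed (edgeR adjusted p from 0.853 to 0.996). Thus 0 of 5 were called between clones by edgeR, and none under any alternative, DESeq2 included (smallest adjusted p = 0.184, for HHLA1), where 0.305% of all genes were called. At an unadjusted p under 0.05 it was 1 of 5 (HHLA1). Replicate 1 of clone 9-1 had the lowest level of that clone for ESRG, ABHD12B, LINC00458 and HHLA1.

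**Figure D2:**
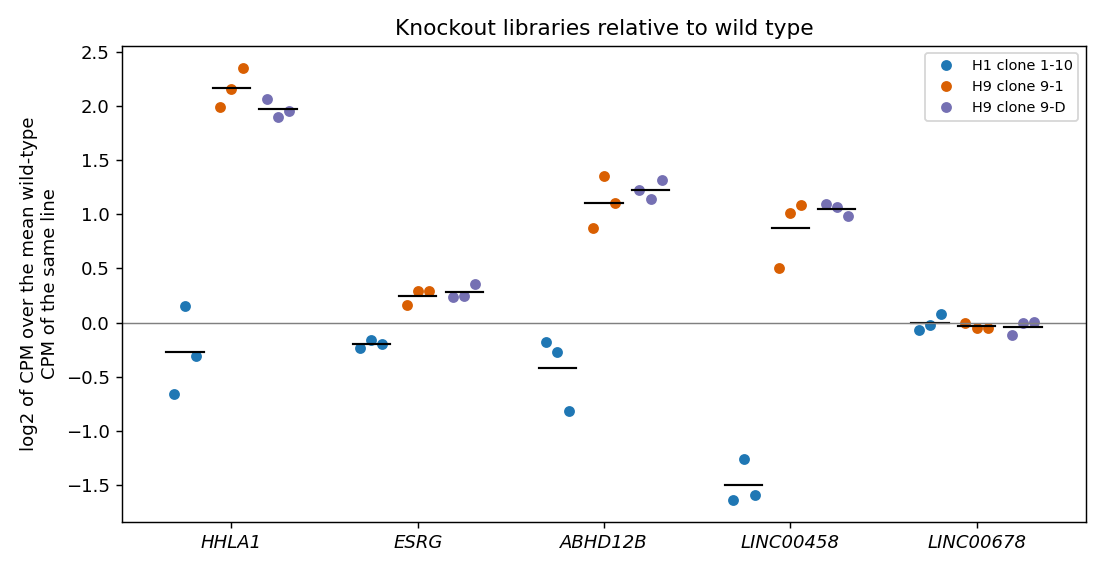
Points are the edited libraries as log2 of their CPM over the mean wild-type CPM of the same line (y axis), with a line at the mean of each clone, for the 5 transcripts along the x axis. The H1 points of LINC00458 and ESRG lie below 0 while the H9 points of both lie above it, and LINC00678 stays near 0 in all 3 clones.

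The unreplicated H1 libraries give another view of the same line, with counting error only. LINC00458 had 45 counts in wild type (4.0 CPM), 40 in heterozygous clone 1-5 (3.05 CPM) and 27 in clone 1-10 (2.03 CPM). The ratio of clone 1-10 to wild type was 0.508 (95% exact interval 0.303 to 0.836), and that of clone 1-5 was 0.763 (0.485 to 1.19). Clone 1-10 was thus lower here too, while for clone 1-5 no difference was detectable at this depth. However, the unreplicated wild-type library itself was at the level of the replicated clone 1-10 libraries (3.95 CPM) and not of the replicated wild type (11.1 CPM), in tables that were scaled separately. The gap between wild-type H1 libraries of the 2 tables was therefore about as large as the tested difference for this transcript.

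ESRG stood at 685 CPM in the unreplicated wild type, 641 in clone 1-5 and 588 in clone 1-10. Its ratios to wild type were 0.937 (0.908 to 0.966) and 0.859 (0.832 to 0.887), and these intervals cover the counting of reads, not the spread between replicates. Among all 14032 genes with at least 10 counts, the log2 ratios for clone 1-10 had 5% points of -0.52 (lower) and 0.33 (upper). ESRG lay between them, while the LINC00458 ratio lay below the lower one. These points pool genes of all depths, and LINC00458 had only 45 and 27 counts. Its exact interval (0.303 to 0.836 as a ratio) reaches across the lower point, so its place relative to that point is not settled. HHLA1 had 18, 33 and 23 counts and ABHD12B had 13, 18 and 14 in wild type, 1-5 and 1-10, too few to tell the libraries apart. LINC00678 stood at 94.1, 103 and 92.6 CPM.

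Other transcripts were taken as a list of 7 associated with HERV-H: C4orf51, OC90, HHLA2, HHLA3, SCGB3A2, LINC-ROR and ERVH48-1. No repeat annotation was used, so which retroviral family each belongs with, ERVH48-1 included, was not checked here. In H9, 5 of 6 tested rose, none fell, and the median log2 fold change was 1.01 against -0.0039 over all tested genes, with 14.4% of all genes called higher. One of the 5, C4orf51, passed the filter on low counts only through the edited libraries, where it is high, and without it 4 of 5 rose and the median was 0.64. In H1, 0 of 4 tested rose and 1 fell, by edgeR and by DESeq2 alike, with a median of -0.28 against 0.0026. Of all genes in H1, edgeR called 7.25% lower. Between the H9 clones 0 of 6 were called by either tool, and 0 had an unadjusted p under 0.05. HHLA2 was below the filter in both lines.

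LINC-ROR, a long noncoding RNA named for its part in reprogramming, rose in H9 from 3.52 ± 0.641 CPM (SD, n = 3) to 13.8 ± 1.69 CPM (n = 6), a log2 fold change of 1.96 (SE 0.136, edgeR adjusted p = 7.93e-13). In replicated H1 it went from 0.95 to 0.74 CPM (log2 -0.47, SE 0.423) and did not pass (edgeR adjusted p = 0.524). The unreplicated H1 libraries went the other way, with 5 counts in wild type and 19 in clone 1-10. Their ratio was 3.21 (95% exact interval 1.16 to 11). OC90, which encodes an inner ear otoconial protein and lies next to HHLA1, rose from 1.65 to 4.29 CPM (log2 1.38, SE 0.204, edgeR adjusted p = 3.55e-06). SCGB3A2, a secretoglobin gene, rose from 24.3 to 34.1 CPM (log2 0.49, edgeR adjusted p = 6.6e-06). C4orf51 was a low transcript, with 2 to 6 counts a library in wild-type H9 (0.24 CPM) and 8 to 28 in the edited libraries (1.11 CPM), and it was below the filter in H1. HHLA3 did not pass in either line, with log2 values of -0.19 in H9 and -0.09 in H1.

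ERVH48-1 encodes suppressyn, a truncated retroviral envelope protein that blocks syncytin-driven cell fusion. It went the same 2 ways as LINC00458. In H1 it fell from 12.9, 11 and 11.9 CPM to 5.08, 5.19 and 5.87 CPM (log2 -1.16, SE 0.137, edgeR adjusted p = 2.27e-07). In H9 it rose from 16.5 ± 0.905 CPM (n = 3) to 25.7 ± 2.25 CPM (n = 6), with a log2 fold change of 0.64 (edgeR adjusted p = 5.12e-07). In the unreplicated H1 libraries it was at 5.51 CPM unedited and 6.16 CPM in clone 1-10 (ratio 1.12, 95% exact interval 0.795 to 1.58). As for LINC00458, that unedited library was at the level of the replicated clone 1-10 and not of the replicated wild type. Of the listed genes derived from ERVs or other retroelements, ERVMER34-1 fell in H1 from 43.4 to 21.5 CPM (log2 -1.02, edgeR adjusted p = 1.14e-10). It did not pass in H9 (log2 0.07). ERVMER34-1 and ERVH48-1 were the 2 that fell in H1 of 5 tested, beside 7.25% of all genes, and none rose. Of the 5 tested in H9, ERVH48-1 and PEG10 rose and ERV3-1 fell, beside 14.4% of all genes called higher and 15.3% lower.

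**Figure D3:**
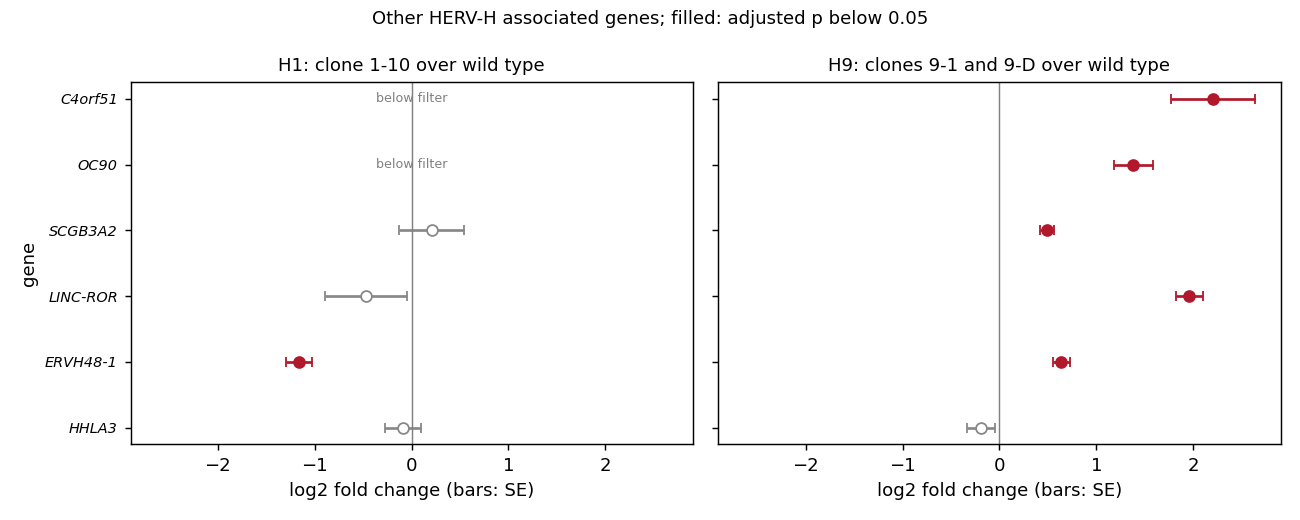
Log2 fold changes (x axis, bars are SE) of edited over wild-type cells for the other genes listed as HERV-H associated. H1 is on the left and H9 on the right, with points filled where the adjusted p is below 0.05. In H9, 5 of the 6 tested genes are filled and to the right, while in H1 only ERVH48-1 is filled, to the left.

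Of 22 genes that neighbour the 5 by RefSeq order, 13 were tested in H9, where OC90 rose and NIN, a centrosome gene next to ABHD12B, fell (log2 -0.40, edgeR adjusted p = 1.42e-05), beside 29.7% of all genes called. In H1, where 12.3% of all genes were called, 12 neighbours were tested and NIN alone was called (log2 -0.26, edgeR adjusted p = 0.0201), a call that DESeq2 did not make. NIN was thus lower in the H9 clones, where ABHD12B was higher, and in the H1 clone, where ABHD12B did not pass. ESRG lies within CACNA2D3, which was at 2.22 to 4.4 CPM in the replicated groups, and LINC00678 overlaps BDNF-AS, at 0.613 to 2.05 CPM. Whether strand was used in counting is not given in the sources used here, and how reads in the overlaps were assigned was not tested.

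A list of 10 proteins taken as activators of HERV-H was examined, and that role was not checked here for any of them, ZFP42 included. In H1, 0 of 10 were called by edgeR or DESeq2, against 12.3% of all genes by edgeR, and 3 had an unadjusted p under 0.05. Their median log2 fold change there was 0.03. In H9, where 14.4% of all genes were called higher, 6 of 10 rose, POU5F1, NANOG, KLF4, TFCP2L1, EP300 and ZFP42, and none fell. The lists overlap: POU5F1, NANOG and ZFP42 are also counted below as core pluripotency genes, and KLF4 and TFCP2L1 as naive ones. The H1 comparison had 3 edited libraries and the H9 one 6, so the lines differed in what could be called, and the difference between them was not tested. POU5F1, the central pluripotency factor, rose in H9 from 1411 to 1549 CPM with overlapping libraries (log2 0.13, edgeR adjusted p = 0.0403). Its H1 log2 value was close to that, at 0.11 (edgeR adjusted p = 0.108). NANOG was at 0.17 in H1 (edgeR adjusted p = 0.077) and 0.43 in H9. KLF4 rose from 25.2 to 38.5 CPM (log2 0.61, edgeR adjusted p = 8.94e-06) while its H1 mean was 2.2 CPM unedited and 2.87 CPM edited. ZFP42, a zinc finger gene of pluripotent cells, rose in H9 from 122 to 226 CPM (log2 0.89, edgeR adjusted p = 1.42e-14). In H1 its log2 value was -0.11, which did not pass.

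Repressors of endogenous retroviruses moved both ways by small amounts. Of 27 tested, 4 rose and 4 fell in H1, and 6 rose and 4 fell in H9, with median log2 values of 0.05 and 0.01. Among all genes 5.01% were called higher and 7.25% lower in H1, and 14.4% and 15.3% in H9, so the fallers in H9 were near the share over all genes. DNMT3B, a DNA methyltransferase, rose in both lines (log2 0.21 and 0.41), as did the KRAB zinc finger genes ZNF90 (0.26 and 0.65) and ZNF93 (0.27 and 0.28). CBX5, which encodes heterochromatin protein HP1 alpha, fell in both (-0.23 and -0.29), as did FAM208A, a subunit of the HUSH silencing complex (-0.24 and -0.20). Each of these passed edgeR's test, with adjusted p from 3.84e-10 to 0.0143.

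Long noncoding RNAs of pluripotent cells were a list of 6 tested genes, LINC-ROR among them. In H9, where 14.4% of all genes were called higher, 4 rose and none fell, with LINC-ROR counted in the HERV-H list too. The largest was LINC01108, from 8.78 to 47.5 CPM (log2 2.44, SE 0.143, edgeR adjusted p = 1.99e-14). In H1, where 7.25% of all genes were called lower, none rose and TUNAR fell, from 70.2 to 56.1 CPM (log2 -0.32, edgeR adjusted p = 0.000555). TUNAR, a noncoding RNA conserved among vertebrates, rose in H9 by 0.24 on the log2 scale.

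Markers of cell state moved in the same libraries. In H9, where 14.4% of all genes were called higher, 15 of 18 core pluripotency genes rose and 1 fell, and their summed level was 9985 to 10240 CPM in edited libraries against 8447 to 8648 CPM in wild type. In H1, where 5.01% of all genes were called higher, 4 of the 18 rose. Their sum was likewise higher in all edited H1 libraries, at 10780 to 11060 CPM against 9693 to 10090 CPM. Of 9 tested naive pluripotency genes, 7 rose and 1 fell in H9, with summed levels of 79.7 to 100 CPM against 56.5 to 63.2 CPM, with ZNF729 at 0 in all H9 groups and KLF17 at 0 in wild type. Of 5 tested neuroectoderm markers in H9, 1 rose, TUBB3, a neuronal tubulin gene, at 402 to 460 CPM in edited and 245 to 288 CPM in wild-type libraries. The other 9 markers of that list together were lower in every edited H9 library (6.62 to 9.92 CPM against 11.4 to 12.4 CPM). The median log2 fold change of all 5 tested, TUBB3 included, was -0.40, and none was called lower. In H1, where naive genes summed to 18.5 to 19.7 CPM and 0 of 7 were called, 5 of 7 streak and endoderm markers fell, beside 7.25% of all genes, from summed levels of 35.1 to 40.1 CPM to 12.9 to 24.3 CPM. Of 9 tested in each list, 5 neuroectoderm and 6 fibroblast markers also fell in H1. The summed fibroblast levels overlapped, while the neuroectoderm markers other than TUBB3 summed to 12.3 to 17.7 CPM in edited and 31.1 to 43.8 CPM in wild-type H1 libraries. DESeq2 called 3 of the streak and 3 of the fibroblast markers lower. Of 3 trophoblast markers 1 fell in H1, with CGA and HAND1 at 0 in wild type. In H9, 14.4% of all genes were called higher and 15.3% lower. There the streak, trophoblast and fibroblast lists, with 7, 6 and 9 genes tested, had 2, 2 and 3 higher and 0, 1 and 5 lower. Of the genes so called, T, SOX17 and RAX in H1 and DPPA3, FGF4, FOXA2, GATA6, GATA2 and TWIST1 in H9 had a mean under the count filter in the group where they were low. Their part in the differences of HHLA1, ABHD12B, ESRG and LINC00458 was not tested, and in bulk RNA fewer cells of a type and less RNA per cell cannot be told apart.

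Among all genes, those whose levels ran most alike to each transcript over the 15 replicated libraries, after the mean of each line was subtracted, were listed by Pearson's r as a description. HHLA1 was nearest to ARRB1 (0.977), ZFP42 (0.975) and TUBB2A (0.972). LINC00458 was nearest to ERVH48-1 (0.958), SEC14L4 (0.951) and CD177 (0.932), all 3 of which were lower in H1 clone 1-10 and higher in the H9 clones. ABHD12B was nearest to RBM11 (0.945), ESRG to LINC00428 (0.909) and LINC00678 to NEK4 (0.87). Within the group the pairs among HHLA1, ESRG, ABHD12B and LINC00458 had r from 0.667 (HHLA1 with LINC00458) to 0.797 (HHLA1 with ABHD12B). LINC00678 had r from -0.374 to 0.028 with the others. These points share libraries, and the edited H9 libraries make up much of their range.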

How the data were processed

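The authors' deposited count tables hold whole read counts per gene symbol for 18 libraries in 3 tables. The submitters' processing notes name STAR, featureCounts, DESeq2 and the genome build hg19. Versions, strand use and the treatment of reads that match several repeat copies are not given in the sources used here, and the last could move counts between copies. The authors also deposited their own comparisons, which hold log2 fold changes and adjusted p-values, per the file headers.

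Here, edgeR 4.0.16 (R 4.3.3) was run on the counts of each table with TMM scaling, filterByExpr, the quasi-likelihood F test and Benjamini-Hochberg adjustment over all tested genes at 0.05. The fits were H1 clone 1-10 against wild type (3 and 3 libraries), both H9 clones against wild type (6 and 3) and 9-D against 9-1 in a model of 3 groups. Intervals of log2 fold changes are 1.96 SE on each side. Depth was 9.66 to 21 M counts a library. Exact intervals at 95% for single libraries cover counting error only. Replicates of a group differed by more than counting noise (chi-square per gene 1.83 to 5.94 over 15 pairs). On simulated data with 200 genes changed 2-fold among 14897 in the H1 comparison, 175 were recovered with 5 false calls. Exon lengths are from GENCODE version 29, which uses GRCh38, so they are not those of the counting. Sequences of the transcripts are not reported here.

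The members, gene lists and comparisons were chosen with earlier results of these data known. Named genes were the members, ZNF263, every tested gene of the HERV-H list, the 3 genes with the smallest p per list and line, the 2 nearest genes on each side, and the 3 most similar genes per member. Genes named beyond these are those that a count covers. Alternatives were RLE size factors, DESeq2 1.42.0, no filter on low counts, a replicate block, and leaving out each library.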

Additional observations from a re-analysis of the deposited data

Results flagged for a closer look

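Looked at were 12 genes, the 5 transcripts and the 7 others listed as HERV-H associated. Of these, 4 had every edited H9 library above the H9 wild type and every edited H1 library below the H1 wild type. Of the 14627 genes tested in both lines, 117 (0.8%) had the same order, so other genes had it too. The 2 counts are over unlike sets, since C4orf51, OC90 and HHLA2 were below the filter in H1 and are not among the 14627. The difference between the lines was not tested for any of the 4. As log2 ratios of mean CPM, LINC00458 was at 0.97 in H9 and -1.49 in H1, and ERVH48-1 was at 0.64 in H9 and -1.15 in H1. ESRG was at 0.26 in H9 and -0.20 in H1, where the nearest edited and wild-type H1 libraries were about 1 CPM apart. C4orf51 was at 2.20 in H9 and -4.17 in H1, but the H1 value rests on 14 counts in the 3 wild-type libraries and 1 count in the 3 edited ones, a ratio of 14.2 with an exact 95% counting interval of 2.17 to 602. LINC00458 and ESRG were chosen with the H9 difference of HHLA1 in view.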

How the results depend on the processing

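No alternative changed the direction of HHLA1 or LINC00458 in H1, or of any of the 5 transcripts in H9, and no call of a member changed except that of ESRG in H1. The ESRG log2 value in H1 ranged from -0.27 to -0.12 with 1 library left out (adjusted p 9.47e-05 to 0.198). The count of genes called in H1 (1827, 747 higher and 1080 lower) was 1214 with DESeq2 (573 higher, 641 lower) and 949 to 2100 with 1 library left out, lowest without wild-type replicate 3 and next without clone 1-10 replicate 1 (1102). The replicate block gave 2926 (1473 higher, 1453 lower), and it changed no call of a member. Same-numbered libraries had correlations of 0.028 to 0.08 in H1 and -0.027 to 0.05 in H9, so the numbers are not taken to pair them. Calls in H9 (4574) ranged from 3486 to 4903 over all alternatives. Calls between the clones (47) were 64 with no filter on low counts, 54 with the replicate block and 25 to 53 with 1 library left out, with 25 without 9-D replicate 2, 27 without 9-1 replicate 2, 28 without 9-1 replicate 1 or 3 and 29 without 9-D replicate 3. Values near 0 changed sign: LINC00678 in H1 was 0.0005 with DESeq2, 0.0026 with no filter on low counts and -0.042 to 0.029 with 1 library left out, and ABHD12B in H1 was -0.62 to 0.027. Between the clones the ranges were -0.0076 to 0.056 for ESRG, -0.0074 to 0.24 for ABHD12B and -0.018 to 0.04 for LINC00678. For other genes, 2688 of 2758 alternative values kept their side of the threshold, 52 lost the call, 18 gained one and 0 reversed while called. The cause of these changes was not tested, except that fewer libraries or genes entered by construction. In H1, HHLA1 and ABHD12B rested on 14 to 85 counts a library, which limits what could be detected.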
